A study of Mus musculus with 8 samples.

Results

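The genes described here are 10 factors of the naive pluripotency network, Zfp42, Klf2, Klf4, Klf5, Esrrb, Nr0b1, Tbx3, Tcl1, Dppa3 and Prdm14, followed through neural differentiation of mouse ES cells. They were taken as the non-control probes whose gene name is one of these symbols, and all 10 were found among 36163 gene names on the arrays, each with 1 probe. E14Tg2A ES cells (strain 129/Ola), a feeder-free line, were measured at 4 stages. The ES stage (0 days in vitro, DIV) was grown on gelatin in serum with LIF. Epiblast-like aggregates (ELA, 2 DIV) had floated for their whole course in minimal medium with N2 and B27, without serum or LIF. Neural progenitor cells (NPC, 6 DIV) came from dissociated aggregates replated on poly-ornithine and laminin, and neural precursors (NPC/Neu, 10 DIV) from a second replating in medium without B27. At each stage 1 array held total RNA and 1 held Ago-RNA, the RNA precipitated from the cytosolic fraction with an antibody to all Argonaute (Ago) proteins, the core of the RNA-induced silencing complex. RNA of 3 experiments was pooled on each array, so no value of a stage has a biological replicate and differences between stages have no test. A test of Ago-RNA against total RNA that takes the stages as replicates was not run. One line, unsorted cultures and serum with LIF rather than inhibitor medium limit the groups as models of the embryo.

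Naive pluripotency is the state of the preimplantation epiblast, and mouse ES cells keep it as long as LIF–Stat3, Wnt and Bmp signals hold a set of transcription factors active. Klf4 lies below Stat3, Tbx3 below PI3K signaling and Esrrb below the Wnt effector Tcf3, and these factors maintain each other and the core factors Pou5f1 (Oct4) and Sox2. At implantation the epiblast becomes primed, which is known for loss of the naive factors while Oct4 is kept, before neural or mesendodermal genes appear.

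Promoter sequence was examined because the members moved together at the first transition. RefSeq (GRCm38.p6) promoter windows were at hand for 6 of the members, in 7 windows because Esrrb has 2. The 250 bases before each start were searched on both strands for CACCC, the box bound by Klf proteins, for ATTTGCAT, the octamer bound by Oct4, and for the Esrrb motif as AAGGTCA and as the longer TCAAGGTCA that contains it. The background was 32851 promoter windows, which leave out 1 chromosome. CACCC was found in 6 of the 7 windows and in 52.0% of the background windows, so this count is not far from the background. ATTTGCAT was found in 1 window, that of Zfp42, against 1.6% of the background windows. AAGGTCA (4.08% of the background windows) and TCAAGGTCA (0.387%) were in none of the 7. The windows of Zfp42, with 3 CACCC boxes and the octamer, and of Klf4 with none are shown as the extremes and that of Klf2, with 1, as one between them, each on the strand of the gene, with motif letters of either strand in capitals. They lie at chr8:43307010-43307259 on the minus strand (Zfp42), chr8:72318812-72319061 on the plus strand (Klf2) and chr4:55532476-55532725 on the minus strand (Klf4).
Zfp42: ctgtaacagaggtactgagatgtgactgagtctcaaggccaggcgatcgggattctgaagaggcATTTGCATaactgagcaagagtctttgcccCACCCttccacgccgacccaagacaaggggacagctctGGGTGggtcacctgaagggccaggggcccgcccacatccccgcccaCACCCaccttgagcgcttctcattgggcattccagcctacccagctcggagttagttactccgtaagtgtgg
Klf2: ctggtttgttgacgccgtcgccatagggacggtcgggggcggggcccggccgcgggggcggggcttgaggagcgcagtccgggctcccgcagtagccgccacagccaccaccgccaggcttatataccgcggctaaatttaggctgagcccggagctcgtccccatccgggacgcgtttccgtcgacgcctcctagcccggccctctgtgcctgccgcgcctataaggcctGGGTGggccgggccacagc
Klf4: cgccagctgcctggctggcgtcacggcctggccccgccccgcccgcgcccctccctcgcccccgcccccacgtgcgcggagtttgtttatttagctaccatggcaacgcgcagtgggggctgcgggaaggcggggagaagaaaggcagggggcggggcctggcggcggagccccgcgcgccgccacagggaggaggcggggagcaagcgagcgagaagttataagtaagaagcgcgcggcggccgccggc

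Ago is guided to mRNAs by microRNAs, mainly through the seed, bases 2 to 8 of the microRNA, so seed matches were looked up in the longest 3′ UTR of each gene (GENCODE, mm9). The miR-290 and miR-302 clusters are the main microRNAs of pluripotent cells, let-7 and miR-9 rise as cells differentiate, and miR-200 belongs to epithelial cells. One mature sequence of each seed searched is shown, with the seed in capitals.
miR-294-3p: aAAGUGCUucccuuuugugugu
miR-302c-3p: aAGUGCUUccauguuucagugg
let-7a-5p: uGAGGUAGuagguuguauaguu
miR-9-5p: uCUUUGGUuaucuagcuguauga
miR-200b-3p: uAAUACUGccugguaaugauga
miR-200a-3p: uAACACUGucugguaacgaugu
The match to the miR-294 seed, which miR-291a-3p, miR-295-3p, miR-302b-3p and miR-302d-3p share, was in the 3′ UTR of 0 of the 10 members and of 13.9% of 18638 gene names on the arrays with a 3′ UTR. The shifted seed of miR-302c-3p matched Esrrb (11.8% of gene names), as did let-7 (9.06%) and miR-9 (11.9%). The seed of miR-200b-3p matched Klf4 (12.4%). The seed of miR-200a-3p and miR-141-3p matched no member (16.6%). The 4 matches are shown with the flanking letters of the UTR, the match in capitals. The 3′ UTR of Klf5 is annotated with only 76 bases, so little of it was searched.
Esrrb, miR-302c-3p: aacagcaccaaagagAAGCACTa
Esrrb, let-7: ccctgcttcctgcccCTACCTCa
Esrrb, miR-9: agcccatggaacagcACCAAAGa
Klf4, miR-200b-3p: ccaggagagagagttCAGTATTt

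The probe of Klf5 lies across an exon junction in the coding sequence, and the probes of the other members lie in the 3′ UTR. For Klf2, Esrrb, Nr0b1, Tbx3, Tcl1 and Prdm14 the probe matched mm9 at 57 or more of its 60 bases in its own gene alone. The junction probe of Klf5 did so nowhere, its own gene included, since an intron splits it there. Whether shorter matches add to the Klf5 signal was not tested. The probe of Klf4 (chr4:55540167-55540226) matched 4 other places, of which one on chromosome 15 was identical over 60 bases and one on chromosome 14 over 59. The latter lies in an intron of Mycbp2, on the strand of that gene. The probe of Dppa3 matched its own gene at 59 bases (chr6:122580207-122580266) and a place on chromosome X at 60, where 98.1% of the Dppa3 transcript aligned within a window of 6 kb on each side and the annotation holds the pseudogene Rhox3g-ps. The probe of Zfp42 matched its own gene (chr8:44380667-44380726) at 58 bases and a place on chromosome 15 at 57. The signals of these 3 genes could therefore include transcripts of the copies, which was not tested.

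Levels are log2 signals after background correction and quantile normalization over the 8 arrays, and a difference of 1 (2-fold) or more is called higher or lower. Since most members were printed in 1 spot, the error is that of 399 probes printed in 10 spots each. Taken position by position between arrays, their median SD was 0.124 for the change of total RNA from ES to ELA, 0.112 from ELA to NPC and 0.099 from NPC to NPC/Neu. It was larger for dim probes, 0.217 at the first transition for log2 signals under 8. This spread covers spots and not cultures. Nr0b1 was itself printed in 10 spots. Arrays of ES and NPC lay in one row of the slide and those of ELA and NPC/Neu in the other, so at each consecutive transition slide row and stage cannot be told apart. The scanner software's flag put between 53.4% and 61.2% of an array's spots well above background. In RNA from whole cultures, fewer cells with a transcript and less of it per cell cannot be told apart.

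Total RNA of all 10 factors was lower in ELA than in ES cells, 2 days after LIF and serum were withdrawn. For the 9 members well above background at both stages the log2 change ran from -1.86 for Dppa3 to -3.90 for Nr0b1, and Prdm14, not well above background in ELA, fell at least 15.6-fold. The median of the 10 measured changes was -2.88, where the median of all gene names was 0.01. A fall of 1 or more was seen in 10 of 10 members, in 3.12% of all 36015 gene names with a value and in 4.75% of those well above background in ES cells. A fall of 2.5 or more was seen in 6 of 10 members and in 0.336% of all gene names. In Ago-RNA the fall of 1 or more was likewise seen in all 10, against 6.11% of gene names.

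**Figure D1:**
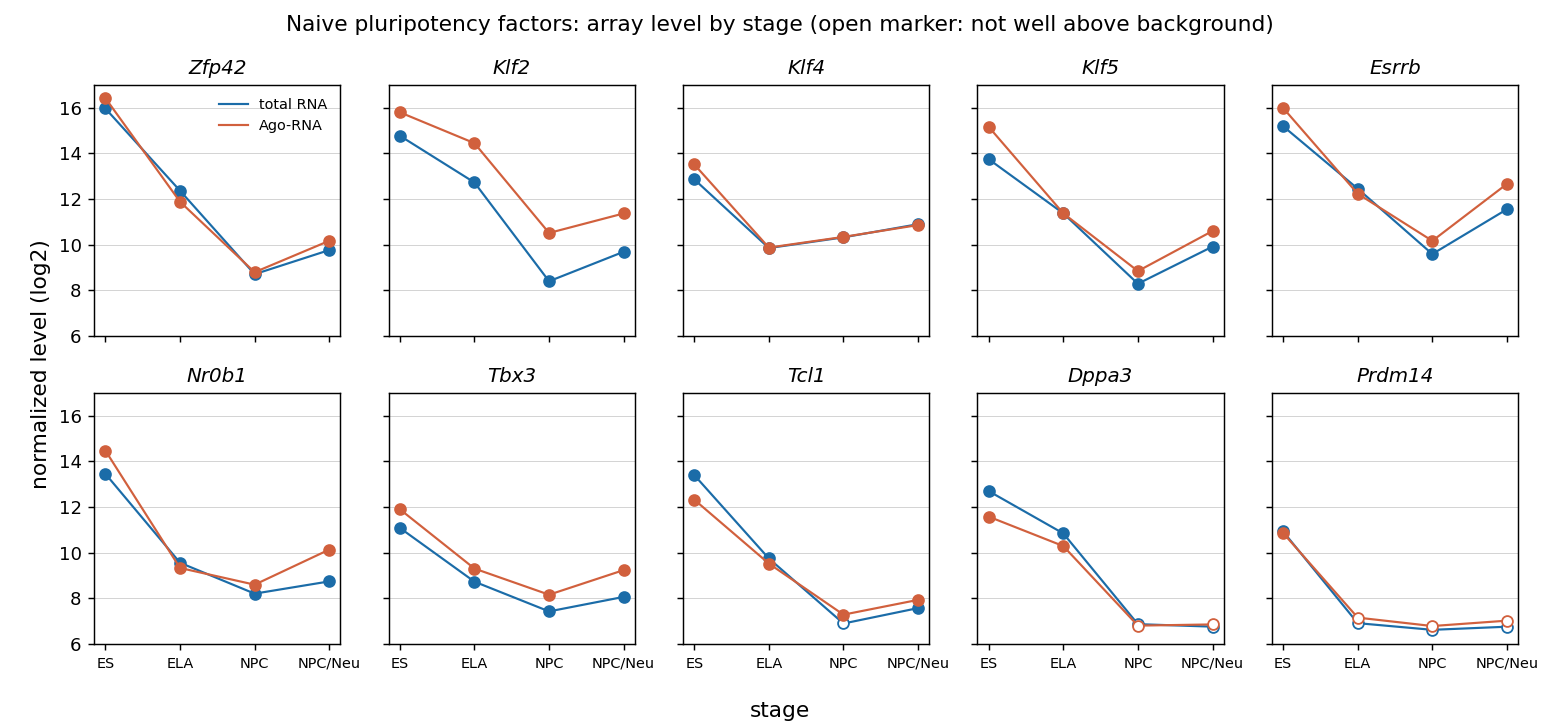
Normalized level (log2, vertical axis) of each factor at the 4 stages (horizontal axis) in total RNA (blue) and Ago-RNA (orange), 1 array per point and open markers where the probe was not well above background. Both RNAs are highest in ES cells for all 10, and 7 factors measured in NPC have a higher point in NPC/Neu than in NPC.

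Zfp42 (Rex1), a zinc finger factor widely used as a reporter of the naive state, had total RNA levels of 15.97 in ES, 12.36 in ELA and 8.71 in NPC, and 9.76 in NPC/Neu. Its total RNA was 12.2-fold lower in ELA than in ES and a further 12.6-fold lower in NPC. From ES to NPC, both in the same slide row, the log2 change was -7.26. Tcl1 and Dppa3, not well above background in NPC, were at least 90.9-fold and at least 57.01-fold lower there than in ES cells, so the 3 falls have no order.

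Of the Krüppel-like factors, zinc finger proteins that bind CACCC boxes and can replace one another in ES cells, Klf2 read 14.77, 12.72, 8.40 and 9.69 in total RNA at the 4 stages in order. Klf5 read 13.75, 11.37, 8.29 and 9.91. Both fell from ES to ELA and again from ELA to NPC, Klf2 by 4.14-fold and then 20.1-fold, and Klf5 by 5.18-fold and then 8.49-fold. Klf2 thus fell less than Klf5 at the first transition and more at the second.

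Klf4 took another course after ELA. It read 12.86 in ES and 9.85 in ELA, a fall of 8.06-fold, and then 10.32 in NPC and 10.90 in NPC/Neu. Its change from ELA to NPC was 0.47 and from ELA to NPC/Neu, within one slide row, 1.05. Mycbp2, whose intron holds a match to the Klf4 probe, read 11.19, 11.29, 11.57 and 12.32 at its own probe, and in Ago-RNA 13.44, 12.07, 13.21 and 14.22. After ELA its total RNA rose at the same steps as that of Klf4, but from ES to ELA it did not fall as Klf4 did. Ago-RNA of Mycbp2 lay above its total RNA at every stage. Ago-RNA of Klf4 after ES cells stayed within the spot SD of its total RNA. The part of Mycbp2 in the Klf4 values was not tested.

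Esrrb, an orphan nuclear receptor that can take the place of Nanog in self-renewal, read 15.19 in ES, 12.45 in ELA and 9.59 in NPC, and 11.55 in NPC/Neu. It fell 6.68-fold and then 7.28-fold. Nr0b1 (Dax1), an X-linked nuclear receptor without a DNA-binding domain and a partner of Esrrb and Oct4, read 13.45 ± 0.19 (SD, n = 10 spots) in ES, 9.55 ± 0.13 (n = 9) in ELA, 8.20 ± 0.17 (n = 10) in NPC and 8.74 ± 0.21 (n = 10) in NPC/Neu. Its spots did not overlap between ES, from 13.24 to 13.80, and ELA, from 9.35 to 9.77. Spot by spot the change was -3.86 ± 0.07 (SD, n = 9) from ES to ELA and -1.39 ± 0.10 (n = 9) from ELA to NPC.

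Tbx3, a T-box factor, had low levels of 11.08, 8.73, 7.42 and 8.06 and fell 5.12-fold and then 2.47-fold. Tcl1, a coactivator of the kinase Akt, read 13.40 and 9.74 in ES and ELA, a fall of 12.6-fold. In NPC its total RNA was not well above background, at least 7.21-fold below ELA, and in NPC/Neu it read 7.57.

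The remaining factors are known from the germ line as well. Dppa3 (Stella), a maternal factor that protects DNA methylation in the zygote, read 12.70 in ES and 10.84 in ELA, the smallest fall of the members at 3.62-fold. It was not well above background in NPC or NPC/Neu, where it was at least 15.8-fold lower than in ELA (NPC). Prdm14, a zinc finger repressor of Fgf signaling and of the methyltransferase gene Dnmt3b, read 10.93 in ES and was not well above background in ELA, NPC or NPC/Neu. After its loss in ELA no change can be given for it.

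**Figure D2:**
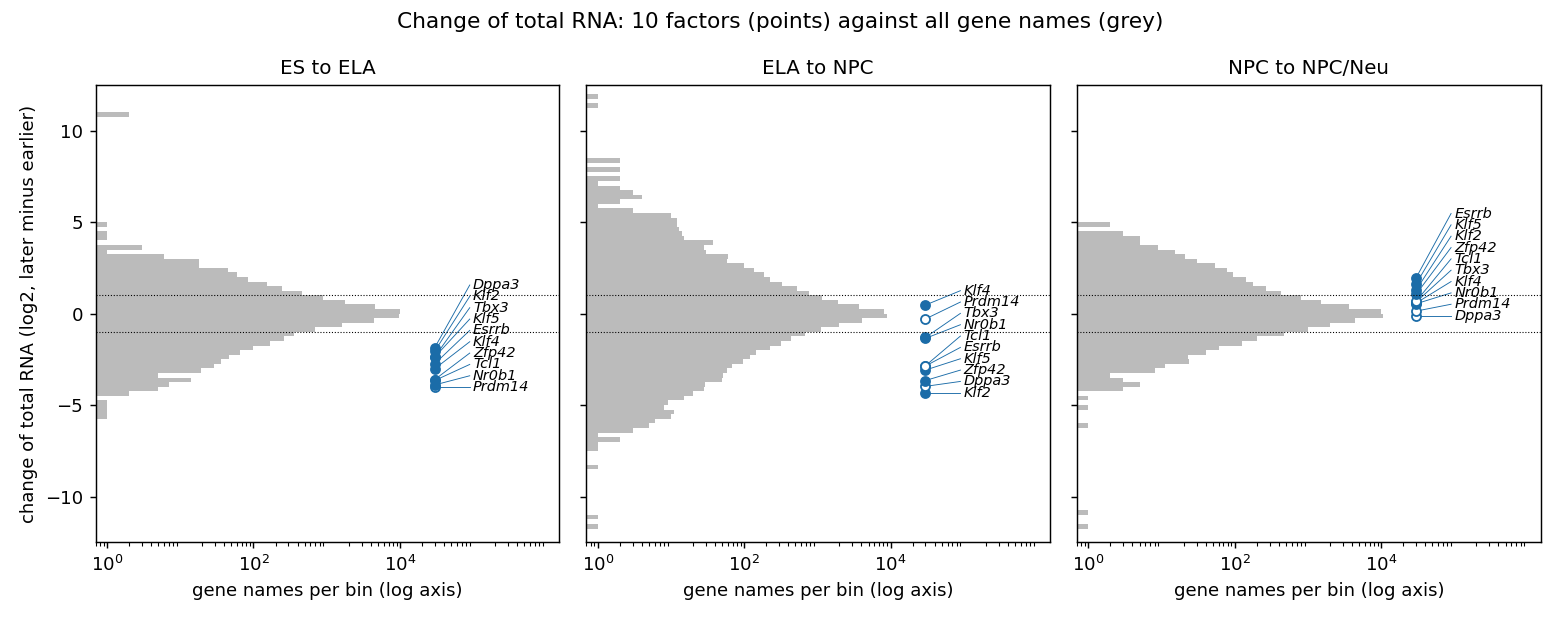
Change of total RNA (log2, later minus earlier stage, vertical axis) at the 3 transitions for the 10 factors (points, open where a side was not well above background; their horizontal place has no meaning) and for all gene names (grey bars, number per bin on a log axis). All 10 points lie under -1 from ES to ELA, 8 do from ELA to NPC, and 4 lie above 1 from NPC to NPC/Neu.

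From ELA to NPC, total RNA was lower by 1 or more for 8 of 10 members, against 6.65% of all gene names and 9.32% of those well above background in ES cells. The exceptions were Klf4 and Prdm14. From ES to NPC, where both arrays lay in the same slide row, all 10 were lower, against 8.51% of gene names, and the smallest of these changes was -2.54 for Klf4. From ES to NPC/Neu all 10 were lower as well (11.3% of gene names).

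At the last step, between arrays in different slide rows, some members read higher again. From NPC to NPC/Neu total RNA was higher by 1 or more for 4 of 10 members, against 3.66% of gene names. Esrrb rose most, by 1.96 (3.90-fold), Klf5 by 1.63 (3.09-fold), Klf2 by 1.29 (2.45-fold) and Zfp42 by 1.06 (2.08-fold). Tbx3, Klf4 and Nr0b1 gave 0.64, 0.58 and 0.54, under the threshold but each above the median spot SD of probes of like signal (0.156 under a log2 signal of 8, 0.114 from 8 to 10 and 0.077 from 10 to 12). Tcl1 was at least 1.60-fold higher. No member was lower by 1 or more. In Ago-RNA the rise reached 1 for 5 of 10 (5.3% of gene names), with 2.50 for Esrrb, 1.76 for Klf5, 1.54 for Nr0b1, 1.38 for Zfp42 and 1.08 for Tbx3. Klf2 gave 0.86 there. With both RNAs normalized separately 3 members were higher in total RNA, since Zfp42 gave 0.96 and lost its call. When processed signals were instead set to a common 75th percentile, 7 members in place of 4 were higher in total RNA. Dppa3 (1.01), Tbx3 (1.11) and Tcl1 (1.96) were added, of which Dppa3 was not well above background on either array and Tcl1 was not in NPC. Esrrb in NPC/Neu still lay 0.90 below ELA in total RNA, while in Ago-RNA it lay 0.43 above it. Over the 10 members, 5 were lower by 1 or more in NPC/Neu than in ELA, in the same slide row (9.21% of gene names).

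By measured values total RNA ran ES, ELA, NPC/Neu and NPC, from high to low, in 8 of 10 members, Prdm14 among them. The last 3 stages of Prdm14 and the last 2 of Dppa3 were not well above background and have no order. The share of all gene names with this order was not counted.

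**Figure D3:**
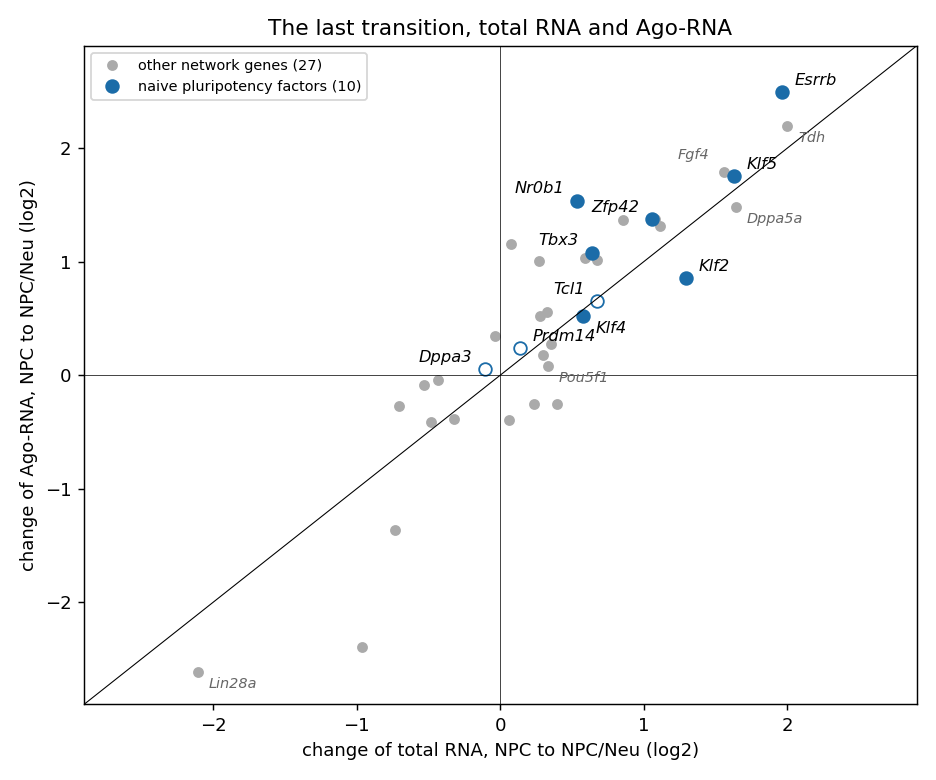
Change from NPC to NPC/Neu in total RNA (horizontal axis, log2) and Ago-RNA (vertical axis, log2) for the 10 factors (blue, open where a value was not well above background) and 27 other network genes (grey), with the line of equal change. Esrrb and Klf5 lie far up on both axes, while Nr0b1 rises more in Ago-RNA (1.54) than in total RNA (0.54).

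A list of 27 other genes of the naive and general pluripotency network was read in the same way. From ES to ELA 18 of the 27 were lower by 1 or more (3.12% of gene names), with a median of -1.16. The falls were largest for Tcfcp2l1 (-3.68), a direct Stat3 target, while Lin28a, an RNA-binding factor, stood at 0.51. The core factors Pou5f1 and Sox2 changed by -0.45 and -0.63. From ELA to NPC 17 were lower by 1 or more (6.65% of gene names), most of all Utf1 (-6.92), a chromatin factor of pluripotent cells. At this step 2 were higher, Tet2 (2.22), a DNA demethylation enzyme, and Socs3 (1.64), a feedback inhibitor of Stat3 signaling. The share of all gene names higher by 1 or more there was not counted. From NPC to NPC/Neu 5 of the 27 were higher by 1 or more (3.66% of gene names). These were Tdh (2.00), a threonine dehydrogenase of ES cells, Dppa5a (1.64), the growth factor gene Fgf4 (1.56), Utf1 (1.11) and Stat3 (1.08). Lin28a was lower (-2.11). Pou5f1 read 7.98 in NPC and 8.31 in NPC/Neu, and Nanog 10.20 and 10.50.

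Markers of cell types were read beside these changes. Of 8 neural progenitor markers all were well above background at each stage, and their summed signal (log2) went from 14.35 in ES and 14.96 in ELA to 18.01 in NPC and 19.05 in NPC/Neu. The sum of 6 neuron markers went from 15.35 and 14.99 to 15.98 and 18.07. The sum of 10 primed epiblast markers was 17.39 in ES, 18.51 in ELA and 16.24 in NPC, and 16.47 in NPC/Neu, with Dnmt3b the brightest in ES and ELA. From ES to ELA 4 of these 10 were higher by 1 or more, Fgf5 (2.81), Zic2 (2.51), Dnmt3b (1.32) and Lef1 (1.15), while T and Foxd3 gave -0.0031 and -0.01 and Cer1 was not well above background at either stage. The share of all gene names higher by 1 or more from ES to ELA was not counted. From NPC to NPC/Neu Eomes (2.64) and Pou3f1 (1.57) of the 10 were higher by 1 or more (3.66% of gene names). At the last transition, the sum of 5 germ cell markers on the arrays went from 11.59 to 12.15 through Nanos3 (10.75 to 11.65). Sycp3 went from 7.89 to 7.51, Alpl changed by 0.03, and Ddx4 and Dazl were not well above background at either stage. The sum of 5 2-cell-like markers went from 13.48 to 14.16 through Zfp352 alone, the other 4 being at background. Sums of 7 primitive endoderm, 4 trophectoderm and 5 fibroblast markers went down, from 11.76 to 11.03, from 14.84 to 13.16 and from 11.71 to 11.25. The trophectoderm sum was nearly all Krt18 (14.80 to 13.09), and Foxa2 of the endoderm list changed by 0.55, against the sum. The part of any of these cells in the rise of the naive factors was not tested. In ES cells 5 of the 7 primitive endoderm markers were well above background, none over 7.66.

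The 5 gene names whose changes of total RNA from ES lay nearest to the median course of the members were Lgals3, S100a6, Plaur, Liph and Sgk2, among 23639 names well above background in ES cells. Likeness was the root mean square difference over the changes to ELA, NPC and NPC/Neu, and ran from 0.22 for Lgals3 to 0.45 for Sgk2. Liph was not well above background in 2 of the 4 stages and Sgk2 in 1. Lgals3, a galactose-binding lectin, read 13.63, 10.54, 7.99 and 8.87. Of the members, Klf5 (0.46) and Esrrb (0.47) lay nearest to that median and Klf4 (2.24) farthest.

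Ago enrichment, the log2 level in Ago-RNA minus that in total RNA, compares each mRNA between the Ago precipitate and the total RNA. Since levels were normalized over the arrays, it is relative to other genes and not the fraction of an mRNA bound. In ES cells it was 1 or more for 3 of 10 members, against 6.56% of gene names, with 1.42 for Klf5, 1.03 for Klf2 and 1.02 ± 0.05 (SD, n = 10 spots) for Nr0b1. It was -1 or less for 2 of 10, Dppa3 (-1.12) and Tcl1 (-1.08), against 7.34%. Tbx3, Esrrb, Klf4 and Zfp42 gave 0.82, 0.80, 0.65 and 0.45, and Prdm14 -0.07. The median spot SD of this quantity was 0.098 in ES cells. Scaled to the 75th percentile, enrichment in ES cells was 0.54 for Klf2, 0.93 for Nr0b1, 0.30 for Esrrb and -0.33 for Zfp42, whose sign turned. With Ago-RNA and total RNA arrays normalized separately, it was -0.66 for Dppa3 and -0.60 for Tcl1.

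**Figure D4:**
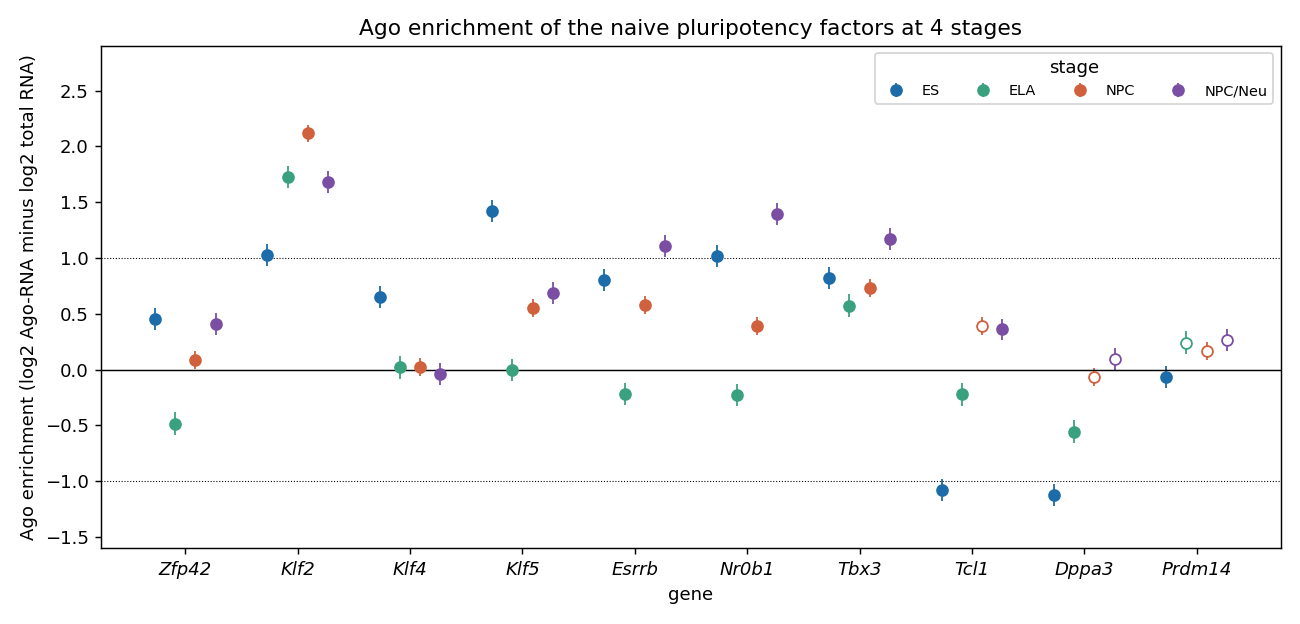
Ago enrichment (log2 Ago-RNA minus log2 total RNA, vertical axis) of each factor at the 4 stages (colors), with bars of the median spot SD of probes printed in 10 spots and open markers where total RNA or Ago-RNA was not well above background. Klf2 lies above 1 at every stage, and Zfp42, Klf5, Esrrb and Nr0b1 have their lowest point in ELA.

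Transcript length moved with this quantity. Over 14466 gene names well above background in both RNAs of ES cells, Spearman's rho between the longest annotated transcript and enrichment was 0.592, as a description of genes measured on one pair of arrays. Dppa3 and Tcl1 have the shortest transcripts of the members, at 833 and 1391 bases. The others range from 1721 bases for Klf5, annotated with only 76 bases of 3′ UTR, to 4982 for Tbx3. Over the 10 members rho was 0.333. In ELA rho over 13569 gene names was 0.366. The median enrichment of transcripts up to 1100 bases was -0.579 in ES and -0.156 in ELA, and that of longer ones 0.222 and 0.039. The part of length in the enrichment of the members, or in its change from ES to ELA, was not tested.

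From ES to ELA the enrichment of Klf5, Nr0b1 and Esrrb decreased by 1 or more, 3 of 10 members against 4.45% of gene names. The Ago-RNA arrays read 15.16, 11.37, 8.84 and 10.60 for Klf5, from ES to NPC/Neu, and its enrichment went from 1.42 in ES to -0.0005 in ELA. Ago-RNA and total RNA of Klf5 were thus level in ELA. Nr0b1 read 14.47, 9.33, 8.59 and 10.13 in Ago-RNA, and its enrichment changed by -1.23 ± 0.06 (SD, n = 9 spots) at the first step. Esrrb read 15.99, 12.23, 10.17 and 12.66, and its enrichment went from 0.80 to -0.22. Its change of -1.02 was -0.77 with separate normalization and -0.47 with scaling to the 75th percentile, both short of the threshold. Zfp42, with Ago-RNA levels of 16.42, 11.88, 8.79 and 10.17, gave a change of enrichment of -0.94 (-0.15 with that scaling). Klf4, with 13.52, 9.87, 10.34 and 10.86, gave -0.63, and its enrichment after ES cells stayed between -0.04 and 0.02. From ELA to NPC the enrichment of Zfp42, Klf5, Esrrb and Nr0b1 went up again, by 0.57, 0.56, 0.80 and 0.62, each more than the spot SD of 0.135 for this step. With separate normalization the rises were 0.17, 0.16, 0.59 and 0.45, the first 2 of them near that SD.

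Tcl1 and Dppa3, whose Ago-RNA read less than their total RNA in ES cells, moved the other way from ES to ELA, by 0.86 and 0.57. The median of transcripts up to 1100 bases, which include that of Dppa3 but not that of Tcl1, went up as well. Ago-RNA of Tcl1 read 12.32, 9.52, 7.28 and 7.93. That of Dppa3 read 11.58 and 10.29 in ES and ELA and was not well above background in NPC or NPC/Neu. Klf2 also moved up, by 0.70, and away from 0. For Klf2 the Ago-RNA array read 15.80 in ES, 14.45 in ELA and 10.51 in NPC, and 11.37 in NPC/Neu. Klf2 was the only member with an enrichment of 1 or more at all 4 stages, at 1.03, 1.72, 2.12 and 1.68. The share of all gene names with this was not counted. With scaling to the 75th percentile, Klf2 gave 0.54 in ES cells. Its total RNA fell up to NPC and was higher again in NPC/Neu. In ELA Klf2 was the only member with an enrichment of 1 or more (1 of 10, against 2.45% of gene names), and likewise in NPC (1 of 10, against 3.6%). Enrichment of Klf2 in ELA, NPC and NPC/Neu was 1.67 or more with every other normalization tried.

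In NPC/Neu enrichment was 1 or more for 4 of 10 members, against 7.34% of gene names, with 1.68 for Klf2, 1.39 for Nr0b1, 1.17 for Tbx3 and 1.11 for Esrrb. From NPC to NPC/Neu it increased by 1 or more for 1 member (1.73% of gene names), Nr0b1, whose probe average gave 1.00. Spot by spot its change was 0.96 ± 0.14 (SD, n = 9), so it lies at the threshold within its spot error. Nr0b1 was thus lowest in enrichment in ELA (-0.23 ± 0.08, n = 9) and highest in NPC/Neu (1.39 ± 0.08, n = 10). The study defined release from Ago by an enrichment of 2 or more that drops to 0.5 or less with a change of 1.5 or more, and loading by the reverse. No member met either definition at any transition, and Klf2 in NPC was the only one to reach 2.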

How the data were processed

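The authors deposited the spot intensities of 8 one-color Agilent arrays (SurePrint G3 Mouse, annotated on mm9), as Feature Extraction 10.7.3.1 wrote them per the file headers (the submitters' processing notes give 9.1), and not normalized between arrays. The mean and local background intensity were used. The labels give 50 ng of labeled RNA and the paper another amount.

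Background was corrected with normexp (offset 50) in limma 3.58.1 (R 4.3.3), irregular spots (125 to 523 per array) were set aside, log2 values were quantile normalized over 8 arrays, and spots of a probe and probes of a gene were averaged. No spot was saturated. Where 1 side was not well above background, a fold is written "at least", against the higher of its own value and the lowest signal well above background on that array. The arrays' number limits the precision. Python 3.11.15 with numpy 2.4.6 and pandas 2.3.3 gave the other values. The normalization was tested on simulated data. Probes were matched to mm9 with GENCODE annotation.

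Members and lists were chosen with earlier results of these data known. Named genes are the 10 members, the 5 names nearest in course, and from other lists the extremes, genes behind counts up to 5 and marker examples. Pou5f1, Sox2, Nanog and Mycbp2 were named after their values were seen. The alternatives were an offset of 16, the processed signal (quantile normalized, or scaled to the 75th percentile), separate normalization of both RNAs, probes well above background only, irregular spots kept, the brightest probe of a gene and a threshold of 2.5. Control immunoprecipitations were not used here.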

Additional observations from a re-analysis of the deposited data

Results flagged for a closer look

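Ago enrichment of 3 factors was above 0 by more than the spot SD in ES cells, below 0 by more than it in ELA and above 0 again in NPC, so that the direction of the difference between Ago-RNA and total RNA turned between stages. The differences were not tested, since each condition has 1 array. For Zfp42 the change of enrichment was -0.94 from ES to ELA and 0.57 from ELA to NPC. For Esrrb it was -1.02 and 0.80, and for Nr0b1 -1.24 and 0.62 (probe averages). The value of Zfp42 in NPC, 0.09, was about the size of the spot SD of 0.08. With scaling to the 75th percentile Zfp42 was below 0 in ES cells (-0.33) and in NPC (-0.17), and with separate normalization Esrrb was above 0 in ELA (0.26), while Zfp42 (-0.0093) and Nr0b1 (-0.03) were below 0 in ELA by less than the spot SD with the latter. With separate normalization none of the 3 turns was therefore larger than the spot SD on each side of 0.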

How the results depend on the processing

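The number of members lower in total RNA was 10 (ES to ELA), 8 (ELA to NPC) and 0 (NPC to NPC/Neu), and stayed within 1.5 times of these under each other normalization tried, while 6 of 10 passed 2.5 at the first transition. The number higher from NPC to NPC/Neu, chosen after seeing the data, was 4, 7 with scaling to the 75th percentile, 5 with quantile normalized processed signals, 3 with separate normalization (without Zfp42, at 0.96) and 0 at 2.5. Single values of the members and total RNA changes of the 5 names nearest in course, chosen by that course, numbered 125. Of these, 52 were 1 or more in size, and all 52 kept their direction under each of the 6 other normalizations and summaries. The brightest probe of a gene was 1 of these 6 and could not change a member's value, since each member has 1 probe. Scaling to the 75th percentile moved the median of all gene names by up to -0.573 (enrichment in ES) and -0.406 (total RNA, ELA to NPC).

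The median change of total RNA was -2.88, -2.86 and 0.66 in order of transition, with dim members at their measured values. It was -3.18, -3.16 and 1.18 with scaling to the 75th percentile, -3.27 and 1.13 for the last 2 with quantile normalized processed signals, -3.08 and 0.82 with an offset of 16, -2.72 for the second with separate normalization, and -2.74 (9 members) and 1.06 (7 members) for the first and last with members well above background only. The median enrichment was 0.73 in ES, -0.11 in ELA and 0.39 in NPC, and 0.55 in NPC/Neu. Separate normalization gave 1.08, 0.23 and 0.86 for ES, ELA and NPC/Neu, scaling 0.42 in ES, processed signals 0.58 in NPC and 0.86 in NPC/Neu, an offset of 16 0.48 in NPC, and members well above background -0.22 in ELA and 0.56 in NPC, and 0.90 in NPC/Neu. The median change of enrichment was -0.44, 0.52 and 0.15. Scaling gave -0.24 for the first and 0.27 for the last, members well above background -0.63 and 0.32, separate normalization 0.15 for the second and 0.29 for the last, and processed signals 0.74 for the second. The cause of these shifts was not tested. No paired analysis was possible because the groups, of 1 array each, share fewer than 2 replicate numbers, and a test over the stages as replicates was not run. Signals near background limit Prdm14 after ES, Dppa3 after ELA and Tcl1 in NPC.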
